A study of Mus musculus with 6 samples.

Results

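The genes described here encode the scaffold of the sarcomere, the contractile unit of striated muscle: proteins of the Z-disc and M-band, titin, the sarcomeric actins with the factors that set thin filament length, and the chaperones and ligases that assemble and turn over these structures. They were chosen by name, with earlier results of these data known. They are the rows of the deposited count table whose Ensembl mouse identifiers map to a list of 35 gene symbols. From this list myosin chains, troponins and tropomyosins were excluded. All 35 were found among the 28777 genes listed, and all 35 were among the 28157 genes with more than 5 reads over the 6 libraries, which were tested. The libraries were made from the cardiac outflow tract (OFT) of mouse embryos at E13.5, on a C57/BL6J background. In the mutant group (3 libraries, genotype Notch1-het; Nos3- null, that is Notch1+/-; Nos3-/-) 1 copy of the Notch receptor gene *Notch1* and both copies of *Nos3*, the endothelial nitric oxide synthase gene, are knocked out in every cell of the embryo, and the control group (3 libraries) is labelled wildtype. Every library came from a pool of 3 OFTs, 18 in all, so that values of single embryos were not measured. The tissue was removed with a blunt cut under the conal cushions, and the amount of myocardium in each pool was not measured.

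The targeted genes check the labels. *Nos3* was lower under the mutant label, at 20.4 to 22.1 CPM against 31.8 to 48.1 CPM in the wildtype libraries (log2 fold change −0.98), a difference called by DESeq2 (adjusted p = 9.42e-06) and not by edgeR's quasi-likelihood test (adjusted p = 0.128). *Notch1*, however, was higher under the mutant label (log2 fold change 0.89, adjusted p = 0.0313 by edgeR and 6.44e-11 by DESeq2), so the groups are named by the labels of the libraries throughout and every direction given is that of the labels. Total counts per library ranged from 34729103 to 44387490, so that the floor of 3 counts corresponds to 0.0675 to 0.0924 CPM, the count of a gene divided by the TMM-scaled size of its library. The titles and descriptions of wildtype replicates 2 and 3 give opposite library numbers; their group is certain and their number is not. The labels do not tie replicate numbers to litters, and p-values measure the spread between pools. Exons of *Myom1*, *Tmod1*, *Des*, *Nrap*, *Unc45b* and *Cryab* overlap exons of other listed genes on the opposite strand by 207 to 1287 bases, and since the sources do not state whether the counting used the strand, these reads cannot be told apart. Values below are CPM after TMM scaling, which compares 1 gene between libraries, or RPKM, the same value per kilobase of exon, which also divides by gene length and compares genes with each other. All log2 fold changes are mutant over wildtype by label, each with the standard error (SE) of edgeR's fit, and an adjusted p is edgeR's (Benjamini-Hochberg, over all genes tested) unless DESeq2 is named.

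In the sarcomere, actin thin filaments are anchored by α-actinin at the Z-disc and slide past myosin thick filaments, which titin ties to the Z-disc at one end and myomesins cross-link in the M-band at the other. The Z-disc is also a signaling platform, where LIM domain and PDZ-LIM proteins, telethonin and ankyrin-repeat proteins sense stretch, and mutations in many of these genes cause cardiomyopathy. In the embryonic OFT, striated muscle genes are expressed by the myocardial cuff, which surrounds the endocardial cushions and is later reduced as smooth muscle forms the arterial walls.

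Sarcomere genes are known targets of serum response factor, which binds the CArG box, and of MEF2, TEAD, GATA-type and E-box binding factors, so their letters were searched for before the start of the genes, along with those of the TATA box. Of the 35 members, 28 have an entry among the RefSeq promoters of GRCm38.p6, and the 250 bases before the start were searched on both strands in these and in 27025 genes in all. A CArG box was found in 6 of the 28 (21.4%, against 1.62% of all genes), namely *Acta1*, *Actc1*, *Fhl2*, *Ldb3*, *Myom1* and *Nebl*. A MEF2 site was found in 6 (21.4% against 3.42%), namely *Fhl2*, *Mybpc3*, *Myoz2*, *Synpo2l*, *Ttn* and *Xirp2*. The TEAD letters CATTCC were present in 8 members (28.6% against 14.4%) and the E-box letters CAGCTG in 8 (28.6% against 14.7%). The GATA-type letters AGATAA were present in 5 members (17.9% against 11.4%) and the TATA box letters TATAAA in 6 (21.4% against 14.3%). These are matches of letters and not measured binding sites.

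The windows of 5 members follow, written 5′ to 3′ on the strand of the gene, with the matches in capitals. They are shown because *Actc1* and *Acta1* are the sarcomeric actins, *Lmod2* and *Trim63* had the smallest p-values among the members, and *Pdlim3* had a positive log2 fold change. They lie at chr2:114052876-114053125 (minus strand, *Actc1*), chr8:123894776-123895025 (minus strand, *Acta1*), chr6:24597521-24597770 (plus strand, *Lmod2*), chr4:134314870-134315119 (plus strand, *Trim63*) and chr8:45885237-45885486 (plus strand, *Pdlim3*).
Actc1: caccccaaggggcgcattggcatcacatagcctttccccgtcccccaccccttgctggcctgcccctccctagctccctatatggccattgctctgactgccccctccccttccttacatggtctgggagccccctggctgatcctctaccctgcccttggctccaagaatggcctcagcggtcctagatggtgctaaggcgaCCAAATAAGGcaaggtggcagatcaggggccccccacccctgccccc
Acta1: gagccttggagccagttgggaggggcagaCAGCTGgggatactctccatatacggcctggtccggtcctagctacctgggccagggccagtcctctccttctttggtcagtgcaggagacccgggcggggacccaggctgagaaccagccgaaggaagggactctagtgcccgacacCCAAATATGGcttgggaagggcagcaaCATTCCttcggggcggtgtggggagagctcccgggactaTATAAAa
Lmod2: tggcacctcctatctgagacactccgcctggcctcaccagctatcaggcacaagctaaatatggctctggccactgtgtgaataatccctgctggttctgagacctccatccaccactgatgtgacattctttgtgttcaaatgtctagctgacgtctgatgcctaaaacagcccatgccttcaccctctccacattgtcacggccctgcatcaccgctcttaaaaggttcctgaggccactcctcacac
Trim63: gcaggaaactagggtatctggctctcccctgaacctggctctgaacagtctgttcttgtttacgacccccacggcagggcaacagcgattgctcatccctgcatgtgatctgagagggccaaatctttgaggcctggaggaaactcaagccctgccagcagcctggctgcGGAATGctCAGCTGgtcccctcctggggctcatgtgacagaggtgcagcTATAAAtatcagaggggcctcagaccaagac
Pdlim3: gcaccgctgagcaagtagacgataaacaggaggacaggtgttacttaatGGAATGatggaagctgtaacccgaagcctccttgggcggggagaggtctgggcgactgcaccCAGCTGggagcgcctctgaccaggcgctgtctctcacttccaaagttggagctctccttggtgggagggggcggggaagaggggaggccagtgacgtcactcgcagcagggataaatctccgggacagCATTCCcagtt
The capitals mark 1 CArG box in *Actc1*. In *Acta1* they mark, from left to right, an E-box, a CArG box, the TEAD letters and a TATA box. This TATA box ends next to the RefSeq start, and the GENCODE start of *Acta1* lies further downstream, at chr8:123894751. In *Trim63* they mark the TEAD letters (on the opposite strand), an E-box and a TATA box, and in *Pdlim3* the TEAD letters once on each strand and an E-box between them. The window of *Lmod2* held 0 of the motifs searched. The starts are those of RefSeq, and 12 bases (*Actc1*), 9 bases (*Lmod2*) and 26 bases (*Pdlim3*) of the windows lie in exons of the GENCODE annotation. The GENCODE start of *Actc1* lies further upstream, at chr2:114053548, so its whole window lies inside the GENCODE span of the gene.

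Most scaffold genes were at a lower level under the mutant label, but no single member passed edgeR's test. Of the 35 members, 31 (88.6%) had a negative log2 fold change, against 48.8% of all genes tested, and their median was −0.41, a level 75.1% of wildtype, against a median of 0.01 over all genes. Of the 31, 25 lay between −0.7 and −0.2. By edgeR 0 of the 35 passed the threshold for a call, an adjusted p of 0.05 or less, where 0.0213% of all genes were called in either direction and 0.00355% as lower, and the smallest adjusted p among the members was 0.141, for *Lmod2*. At an unadjusted p under 0.05, 23 members were lower (65.7%, against 7.83% of all genes) and 1, *Pdlim3*, was higher. DESeq2's Wald test, run here on the deposited counts, called 5 members, all lower: *Lmod2*, *Tmod1*, *Tcap*, *Nexn* and *Trim63* (14.3%, against 1.18% of all genes called as lower and 2.64% in either direction). In 10 members every mutant library lay under every wildtype library (28.6%, against 8.94% of all genes), and in 0 members did every mutant library lie above (10.7% of all genes). For each of these 10 the two-sided exact permutation test gave p = 0.1, the smallest value that 3 libraries against 3 can give.

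The set did not split cleanly by label. Wildtype replicate 3 had the highest CPM of the 6 libraries in 29 of the 35 members and mutant replicate 2 the lowest in 29, both in 28. The other libraries lay between them: mutant replicate 3 was above wildtype replicate 1 in 19 members, while mutant replicates 1 and 2 were below it in 30 and 32. The median deviation of the members from their mean over the libraries was −0.01, 0.13 and 0.46 on the log2 scale in wildtype replicates 1, 2 and 3, and −0.20, −0.39 and 0.02 in mutant replicates 1, 2 and 3. In 27 members the log2 range of the wildtype libraries alone was larger than the log2 fold change between the labels. Summed over the members the level was 19475, 19637 and 25519 CPM in the wildtype libraries and 16563, 14096 and 19524 CPM in the mutant libraries. These sums are 1.95%, 1.88% and 2.39% of the counts in wildtype replicates 1, 2 and 3 and 1.72%, 1.49% and 1.99% in mutant replicates 1, 2 and 3. In bulk tissue fewer muscle cells and less RNA per muscle cell cannot be told apart.

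**Figure D1:**
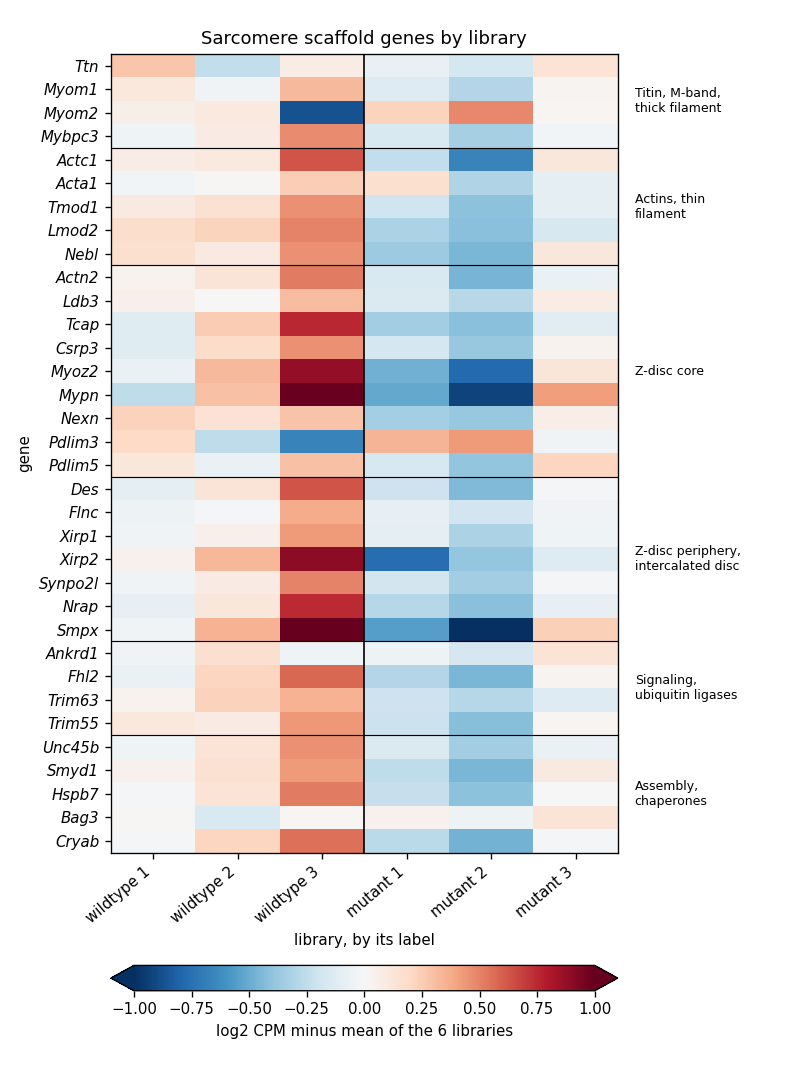
Each row is 1 of 34 scaffold genes (*Myot*, at 1 to 5 counts per library, is left out) and each column 1 library; color is log2 CPM minus the mean of the 6 libraries, red above and blue below, and lines separate the roles. Wildtype 3 is red in most rows and mutant 2 blue, with *Pdlim3* and *Myom2* showing the opposite order.

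**Figure D2:**
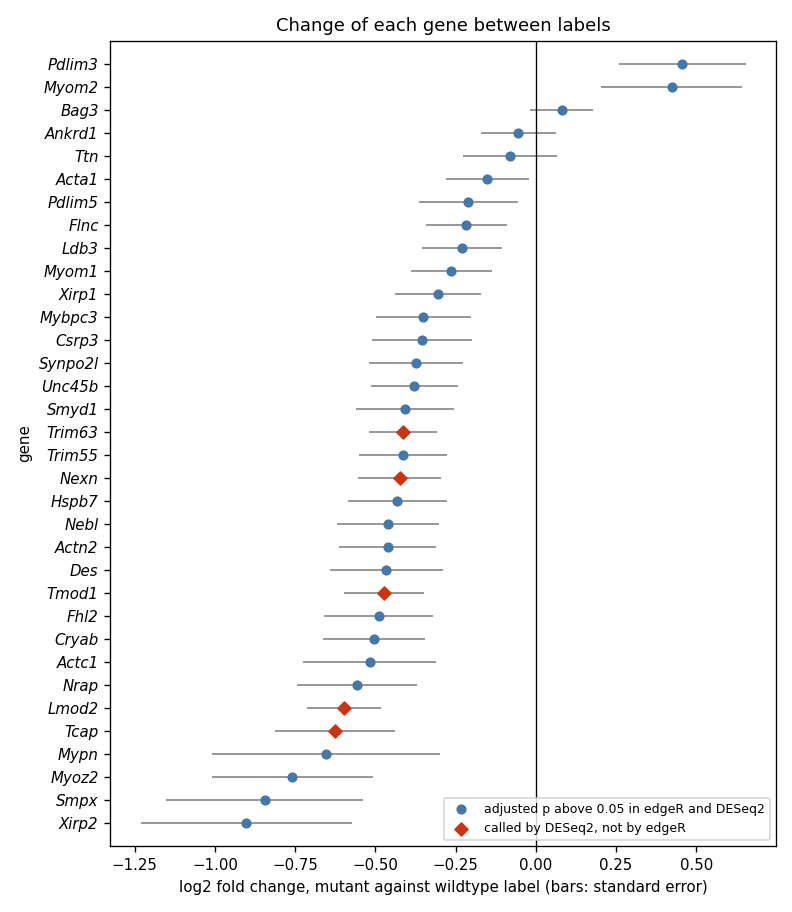
Points give the log2 fold change of each gene, mutant against wildtype label (x axis), bars are the standard error of edgeR's fit (3 libraries per label), and red diamonds mark the 5 genes called by DESeq2. *Myot*, at 1 to 5 counts per library, is left out. Most genes lie between −0.7 and −0.2, and *Pdlim3*, *Myom2* and *Bag3* lie above 0.

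How far the calls depend on single libraries was examined by leaving each out, a check on DESeq2 chosen after the data were seen. DESeq2 called 20 members without wildtype replicate 1 (19 lower and *Pdlim3* higher, where 14.2% of all genes were called), and 17 without mutant replicate 3 (5.91% of all genes). It called 1, *Lmod2*, without wildtype replicate 2 (0.619% of all genes) and the same gene without wildtype replicate 3 (0.371%), and 0 without mutant replicate 1 (0.255%) or mutant replicate 2 (0.215%). With edgeR, 14 members were called without wildtype replicate 1 (13 lower and 1 higher, where 9.45% of all genes were called) and 0 without any other library, where 0.00364% to 0.0109% of all genes (1 to 3 genes) were called. Whichever library was left out, 30 or 31 members were lower by edgeR, and their median ranged from −0.26 without wildtype replicate 3 to −0.54 without mutant replicate 3.

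Titin, the M-band proteins and cardiac myosin-binding protein C form the spine of the thick filament, and these 4 genes had a median log2 fold change of −0.17. *Ttn* (ENSMUSG00000051747, chr2:76703980-76982547, mm10), which encodes the giant spring that spans from Z-disc to M-band, was at 2115, 1475 and 1838 CPM in wildtype replicates 1, 2 and 3 and at 1663, 1546 and 1921 CPM in mutant replicates 1, 2 and 3. The groups overlapped, and both the highest and the lowest *Ttn* level were in wildtype libraries. Its log2 fold change was −0.08 ± 0.146 (SE, adjusted p = 0.828), and with scaling by library size alone it was 0.018, of the opposite sign. Per length *Ttn* was among the 5 lowest members, at 15.5 ± 2.75 RPKM in the wildtype libraries (SD, n = 3), over 116825 bases of exon.

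*Mybpc3*, which binds myosin and regulates cross-bridge cycling, was the second highest member per length, at 477 ± 92.5 RPKM (SD, n = 3) in the wildtype libraries. Its levels were 1691, 1848 and 2423 CPM in wildtype replicates 1, 2 and 3 and 1571, 1389 and 1713 CPM in mutant replicates 1, 2 and 3, so that mutant replicate 3 was just above the lowest wildtype library. For *Mybpc3* the log2 fold change was −0.35 ± 0.148 (SE, adjusted p = 0.291). The 2 myomesins lay on opposite sides. *Myom1*, the main M-band cross-linker, was at 705 ± 89.0 CPM in the wildtype and 588 ± 64.6 CPM in the mutant libraries (SD, n = 3), a log2 fold change of −0.26 ± 0.126 (SE, adjusted p = 0.334). *Myom2*, the isoform of adult and fast muscle, was at 45.0, 46.1 and 23.5 CPM in wildtype replicates 1, 2 and 3 and at 50.2, 60.1 and 43.7 CPM in mutant replicates 1, 2 and 3. Wildtype replicate 3, the library with the highest level of most members, had the lowest *Myom2* level. For *Myom2* the log2 fold change was 0.42 ± 0.220 (SE, adjusted p = 0.366).

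Actins and the proteins that set thin filament length had a median log2 fold change of −0.47, and all 5 lay below 0. *Actc1* (ENSMUSG00000068614, chr2:114047282-114053548), the cardiac α-actin with the CArG box before its RefSeq start printed above, was by far the highest member per length. It was at 4423 ± 1012 RPKM (SD, n = 3) in the wildtype libraries, 37.1 times the level of *Acta1*. Its levels were 6159.6, 6264 and 9047 CPM in wildtype replicates 1, 2 and 3 and 4949, 3689.5 and 6355 CPM in mutant replicates 1, 2 and 3. Mutant replicate 3 exceeded wildtype replicates 1 and 2, so the groups overlapped. The log2 fold change was −0.52 ± 0.207 (SE, adjusted p = 0.272), and the adjusted p was 0.103 by DESeq2. *Acta1* (chr8:123891769-123894751), the skeletal α-actin that the embryonic heart co-expresses, was at 169.9, 174 and 205 CPM in wildtype replicates 1, 2 and 3 and at 193, 141 and 161 CPM in mutant replicates 1, 2 and 3, with mutant replicate 1 second only to wildtype replicate 3. Its log2 fold change was −0.15 ± 0.130 (SE, adjusted p = 0.598). Of the 50-base windows of *Acta1* transcripts, 2.02% are also found in transcripts of other genes, mostly a pseudogene-like gene model and *Actb*, while *Actc1* had 0 of 1568 such windows, so a small part of the *Acta1* counts may be shared.

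The genes that set thin filament length held 2 of the 5 members called by DESeq2. *Lmod2* (ENSMUSG00000029683, chr6:24597762-24605414) encodes leiomodin, which nucleates actin and elongates thin filaments at the pointed end. It was at 109, 113 and 136 CPM in wildtype replicates 1, 2 and 3 and at 77.7, 72.5 and 86.8 CPM in mutant replicates 1, 2 and 3, so that every mutant library was lower than every wildtype library. Its log2 fold change was −0.60 ± 0.115 (SE, adjusted p = 0.141), a level 66.1% of wildtype, and DESeq2 called it with an adjusted p = 0.00122. *Tmod1* (ENSMUSG00000028328, chr4:46038935-46116032) encodes tropomodulin, which caps the same end and opposes elongation. Its levels of 156, 163 and 201 CPM in wildtype replicates 1, 2 and 3 and 128, 110.4 and 137 CPM in mutant replicates 1, 2 and 3 did not overlap either. *Tmod1* had a log2 fold change of −0.47 ± 0.125 (SE, adjusted p = 0.194), with an adjusted p = 0.0259 by DESeq2. Of its 50-base windows 2.82% are shared with other genes. *Nebl*, the nebulin-related protein of the Z-disc end of thin filaments, was at 450.1 ± 63.0 CPM in the wildtype and 327 ± 72.6 CPM in the mutant libraries (SD, n = 3), a log2 fold change of −0.46 ± 0.159 (SE, adjusted p = 0.233).

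**Figure D3:**
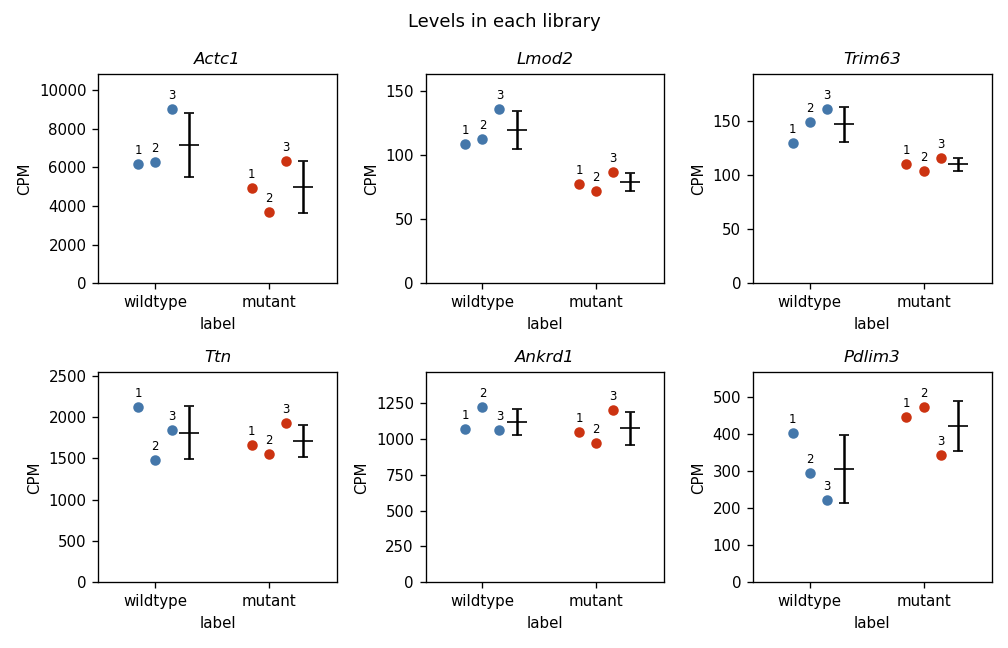
CPM of 6 genes in each library, one panel per gene with an axis from 0; numbers are replicates, and bars give the mean ± SD of the 3 libraries of a label. The labels do not overlap for *Lmod2* and *Trim63* and overlap for *Actc1*, *Ttn*, *Ankrd1* and *Pdlim3*, the last with its higher mean under the mutant label.

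The Z-disc core held 10 members, with a median log2 fold change of −0.39, of which 8 were lower. *Actn2*, the α-actinin that cross-links actin in the Z-disc, was among the 5 highest members at 305 ± 55.9 RPKM (SD, n = 3) in the wildtype libraries. It had 1002, 1071 and 1399 CPM in wildtype replicates 1, 2 and 3 and 879, 706 and 935 CPM in mutant replicates 1, 2 and 3. The groups did not overlap, with mutant replicate 3 nearest to wildtype replicate 1, and the log2 fold change was −0.46 ± 0.152 (SE, adjusted p = 0.224). *Tcap* (ENSMUSG00000007877, chr11:98383811-98384953), telethonin, caps the ends of titin in the Z-disc and was called by DESeq2 (adjusted p = 0.039). Its levels were 63.8, 82.7 and 117 CPM in wildtype replicates 1, 2 and 3 and 54.4, 52.0 and 64.2 CPM in mutant replicates 1, 2 and 3. Mutant replicate 3 was just above wildtype replicate 1, and the wildtype libraries differed 1.83-fold among themselves. The log2 fold change of *Tcap* was −0.63 ± 0.187 (SE, adjusted p = 0.203).

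*Nexn* (ENSMUSG00000039103, chr3:152236982-152266350), the F-actin binding protein nexilin of the Z-disc, was also called by DESeq2, narrowly (adjusted p = 0.0495). Its wildtype libraries were close together, at 482, 453 and 498 CPM in replicates 1, 2 and 3, and its mutant libraries were at 323, 315 and 429.7 CPM in replicates 1, 2 and 3. Every mutant library was below every wildtype library, and the log2 fold change was −0.42 ± 0.130 (SE, adjusted p = 0.208). A non-coding gene model on the same strand shares 5.89% of the 50-base windows of *Nexn*. *Myoz2*, calsarcin, which tethers calcineurin to α-actinin, had one of the 3 most negative log2 fold changes among the members. It was at 96.6, 127 and 186 CPM in wildtype replicates 1, 2 and 3 and at 72.6, 59.1 and 110.0 CPM in mutant replicates 1, 2 and 3. Within each label its levels differed by 1.92-fold (wildtype) and 1.86-fold (mutant), and mutant replicate 3 exceeded wildtype replicate 1. *Myoz2* had a log2 fold change of −0.76 ± 0.251 (SE, adjusted p = 0.224), and DESeq2 gave an adjusted p = 0.252.

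The low-abundance member *Mypn*, myopalladin, was at 1.86 ± 0.804 RPKM (SD, n = 3). Its levels were 6.70, 9.80 and 15.9 CPM in wildtype replicates 1, 2 and 3 and 5.60, 4.19 and 10.7 CPM in mutant replicates 1, 2 and 3, with mutant replicate 3 second only to wildtype replicate 3. Its log2 fold change of −0.66 ± 0.355 (SE, adjusted p = 0.385) was smaller than the range within either label. *Csrp3*, the muscle LIM protein that relays stretch, was at 657 ± 130.0 CPM in the wildtype and 514 ± 73.9 CPM in the mutant libraries (SD, n = 3), a log2 fold change of −0.35 ± 0.156 (SE, adjusted p = 0.301). *Ldb3* encodes cypher, a PDZ-LIM protein that binds α-actinin, and had 399 ± 47.3 CPM in the wildtype and 341 ± 42.8 CPM in the mutant libraries (SD, n = 3), a log2 fold change of −0.23 ± 0.126 (SE, adjusted p = 0.388). Another PDZ-LIM gene, *Pdlim5*, was at 284 ± 35.1 CPM in the wildtype and 246 ± 53.2 CPM in the mutant libraries (SD, n = 3), a log2 fold change of −0.21 ± 0.154 (SE, adjusted p = 0.528).

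*Pdlim3*, the actinin-associated LIM protein, lay on the other side of 0 from most Z-disc genes. It was at 404, 295 and 222 CPM in wildtype replicates 1, 2 and 3 and at 446, 473 and 345 CPM in mutant replicates 1, 2 and 3. Its lowest level was in wildtype replicate 3 and its highest in mutant replicate 2, the reverse of most members, while wildtype replicate 1 exceeded mutant replicate 3. The log2 fold change was 0.46 ± 0.197 (SE, adjusted p = 0.295). *Myot*, myotilin, a Z-disc protein of mature muscle, was near the floor, with 1, 4 and 1 counts in wildtype replicates 1, 2 and 3 and 1, 5 and 5 counts in mutant replicates 1, 2 and 3. No fold was read from these counts, and its place among the 4 members counted as higher rests on them.

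The Z-disc periphery, intercalated disc and intermediate filament genes had a median log2 fold change of −0.47, and all 7 were lower. *Des* encodes desmin, the intermediate filament that links Z-discs to each other and to the membrane. It was at 421, 489 and 690.0 CPM in wildtype replicates 1, 2 and 3 and at 387, 329 and 442 CPM in mutant replicates 1, 2 and 3. Mutant replicate 3 was above wildtype replicate 1, and the log2 fold change of −0.47 ± 0.177 (SE, adjusted p = 0.255) was smaller than the range within the wildtype libraries. *Smpx*, a small muscle protein encoded on the X chromosome, had the second most negative log2 fold change. Its levels were 175, 228 and 357 CPM in wildtype replicates 1, 2 and 3 and 122, 89.1 and 211 CPM in mutant replicates 1, 2 and 3. They spanned 2.04-fold within the wildtype and 2.37-fold within the mutant libraries, and mutant replicate 3 was above wildtype replicate 1. *Smpx* had a log2 fold change of −0.85 ± 0.306 (SE, adjusted p = 0.243), and DESeq2 gave an adjusted p = 0.314.

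The Xin repeat genes encode actin-binding proteins that move to the intercalated disc as the heart matures. *Xirp2* had the most negative log2 fold change of the members, at a very low level: 1.17, 1.45 and 2.16 CPM in wildtype replicates 1, 2 and 3 and 0.650, 0.854 and 1.03 CPM in mutant replicates 1, 2 and 3. These values rest on 52, 60 and 70 counts in wildtype replicates 1, 2 and 3 and on 26, 32 and 39 counts in mutant replicates 1, 2 and 3. The groups did not overlap, and the log2 fold change was −0.90 ± 0.330 (SE, adjusted p = 0.245). *Xirp1* was at 180.0 ± 32.0 CPM in the wildtype and 146 ± 14.5 CPM in the mutant libraries (SD, n = 3), also without overlap, with a log2 fold change of −0.31 ± 0.134 (SE, adjusted p = 0.302). As a share of the RPKM of both, a pair set together after their values were seen, *Xirp2* was 0.361%, 0.422% and 0.483% in wildtype replicates 1, 2 and 3 and 0.209%, 0.321% and 0.321% in mutant replicates 1, 2 and 3.

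*Nrap*, a nebulin-related anchoring protein of assembling myofibrils, was at 159 ± 50.0 CPM in the wildtype and 108 ± 12.8 CPM in the mutant libraries (SD, n = 3) with a log2 fold change of −0.56 ± 0.188 (SE, adjusted p = 0.228). The labels of *Nrap* did not overlap by the smallest of margins, with 122.22 CPM in wildtype replicate 1 and 122.17 CPM in mutant replicate 3. *Synpo2l*, an actin-bundling Z-disc protein, was at 299.9 ± 60.5 CPM in the wildtype and 231 ± 26.7 CPM in the mutant libraries (SD, n = 3), a log2 fold change of −0.37 ± 0.147 (SE, adjusted p = 0.264). *Flnc*, the muscle filamin, was at 401 ± 67.8 CPM in the wildtype and 345 ± 18.9 CPM in the mutant libraries (SD, n = 3), and its log2 fold change of −0.22 ± 0.127 (SE, adjusted p = 0.42) was the nearest to 0 of this group.

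Of the mechanosignaling genes and ubiquitin ligases, *Trim63* was the one called by DESeq2. It (ENSMUSG00000028834, chr4:134315120-134329629) encodes MuRF1, a ubiquitin ligase that binds titin at the M-band and marks sarcomere proteins for degradation. Its levels were 130.4, 149 and 162 CPM in wildtype replicates 1, 2 and 3 and 111, 104 and 117 CPM in mutant replicates 1, 2 and 3, without overlap. The log2 fold change was −0.41 ± 0.106 (SE, adjusted p = 0.191), the second smallest p-value among the members, and the adjusted p was 0.0238 by DESeq2. *Trim55*, the related ligase MuRF2, was at 290.0 ± 40.9 CPM in the wildtype and 218 ± 33.4 CPM in the mutant libraries (SD, n = 3), a log2 fold change of −0.41 ± 0.138 (SE, adjusted p = 0.224), also without overlap. As shares of RPKM, a comparison chosen after the values were seen, *Trim63* made up 31.2%, 34.6% and 31.0% of the pair in wildtype replicates 1, 2 and 3 and 32.5%, 34.5% and 30.2% in mutant replicates 1, 2 and 3. The ranges of the 2 labels overlapped.

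*Ankrd1*, the stretch- and stress-induced ankyrin-repeat protein that shuttles between titin and the nucleus, was the third highest member per length at 387 ± 31.3 RPKM (SD, n = 3), and its levels overlapped throughout. It had 1066, 1220.3 and 1062 CPM in wildtype replicates 1, 2 and 3 and 1052, 972 and 1199 CPM in mutant replicates 1, 2 and 3. Wildtype replicate 3 did not stand above the others for this gene, and mutant replicate 3 was second to wildtype replicate 2. The log2 fold change was −0.05 ± 0.117 (SE, adjusted p = 0.858), and its sign turned with scaling by library size alone (0.0484). *Fhl2*, a LIM-only protein that docks metabolic enzymes and signaling proteins at titin, was at 178 ± 40.3 CPM in the wildtype and 127 ± 22.2 CPM in the mutant libraries (SD, n = 3), a log2 fold change of −0.49 ± 0.169 (SE, adjusted p = 0.233).

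Sarcomere assembly and chaperone genes had a median log2 fold change of −0.41, and 4 of 5 were lower. *Hspb7*, a small heat shock protein of heart muscle, was the fourth highest member at 319 ± 62.4 RPKM (SD, n = 3). It was at 747, 826 and 1078 CPM in wildtype replicates 1, 2 and 3 and at 643, 567 and 754 CPM in mutant replicates 1, 2 and 3. Mutant replicate 3 was just above wildtype replicate 1, and the log2 fold change was −0.43 ± 0.154 (SE, adjusted p = 0.239). The myosin chaperone *Unc45b* was at 211 ± 37.1 CPM in the wildtype and 162 ± 15.8 CPM in the mutant libraries (SD, n = 3) without overlap, a log2 fold change of −0.38 ± 0.135 (SE, adjusted p = 0.239). *Smyd1*, a muscle methyltransferase needed for myofibril assembly, was at 387 ± 54.9 CPM in the wildtype and 292 ± 56.9 CPM in the mutant libraries (SD, n = 3), a log2 fold change of −0.41 ± 0.151 (SE, adjusted p = 0.249). *Cryab*, αB-crystallin, which protects desmin and titin, was at 319 ± 64.4 CPM in the wildtype and 225 ± 36.4 CPM in the mutant libraries (SD, n = 3), a log2 fold change of −0.50 ± 0.159 (SE, adjusted p = 0.215), and narrowly missed the threshold of DESeq2 (adjusted p = 0.0519). *Bag3*, the co-chaperone of Z-disc protein turnover, varied little: it was at 41.9 ± 2.74 CPM in the wildtype and 44.3 ± 2.76 CPM in the mutant libraries (SD, n = 3), its libraries differed 1.12-fold within the wildtype and 1.13-fold within the mutant label, and its log2 fold change was 0.08 ± 0.0972 (SE, adjusted p = 0.728).

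Other genes of the sarcomere and its regulators were grouped in 4 lists. The lists were written from general knowledge, but with earlier results of these data known. By edgeR 0 genes of any of them were called. All 11 contractile filament genes (myosin chains, troponins and tropomyosin) were lower, with a median log2 fold change of −0.53. DESeq2 called 7 of them as lower, where 1.18% of all genes were called as lower. The highest per length was *Myl2*, the ventricular myosin light chain, at 3196 RPKM in the wildtype libraries, and it also had the most negative log2 fold change, −0.95 ± 0.252 (SE, adjusted p = 0.194). The one nearest to 0 was that of *Myl7*, the atrial light chain, at −0.25. Of 26 further scaffold genes 17 were lower and 9 higher, with a median of −0.19 (15 lower and a median of −0.09 when scaled by library size alone), and DESeq2 called 1, *Cap2*, an actin-turnover protein, as lower (−0.45). In this list the highest log2 fold change was that of *Ankrd23*, a relative of *Ankrd1*, at 0.81 with a mean level of 0.792 CPM in the wildtype libraries. The lowest was that of *Myoz3*, from which no fold was read since it was at or below 0.0900 CPM in every library, and the highest level per length was that of *Popdc2*, a membrane protein of striated muscle, at 87.7 RPKM in the wildtype libraries and −0.34 between the labels. Of 12 cardiac muscle transcription factors 7 were higher and 5 lower, with a median of 0.03 and 0 called by DESeq2. These ranged from *Nkx2-5* at −0.45 to *Hand1* at 0.40, and *Gata4*, the highest per length, was at 0.20.

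Relatives of the members, listed together as smooth muscle and non-muscle genes without a check of where each is expressed, lay mostly on the other side of 0. Of 21 such genes 16 were higher and 5 lower in the mutant libraries, with a median log2 fold change of 0.18. DESeq2 called 5 as higher and 1 as lower, against 411 and 331 of all 28157 genes tested. *Actg2*, the enteric smooth muscle actin, had the highest log2 fold change, 1.05 ± 0.316 (SE, adjusted p = 0.203), *Hspb1* the lowest, −0.53, and *Acta2*, the smooth muscle actin that embryonic myocardium also expresses, the highest level per length (644 RPKM, −0.25). Because a ratio within 1 library does not depend on scaling, 10 members were each set against a relative of the same family, in pairs chosen after the values were seen and given without a test. The mean ratio of member to relative was lower in the mutant libraries in 10 of these 10 pairs. The log2 differences ran from −0.43 (*Csrp3* to *Csrp2*) to −1.34 (*Lmod2* to *Lmod1*), with a median of −0.75. Relatives left out of the pairs did not all lie this way. The log2 fold change of *Acta1* (−0.15) was above that of *Acta2* (−0.25). Those of *Hspb7* (−0.43) and *Cryab* (−0.50) were above that of *Hspb1* (−0.53). In 4 of the 10 pairs the labels did not overlap, and the share among other pairs of genes was not computed. The log2 ratio of *Tmod1* to *Tmod3*, the ubiquitous tropomodulin, was 0.64, 0.72 and 1.16 in wildtype replicates 1, 2 and 3 and 0.26, 0.01 and 0.29 in mutant replicates 1, 2 and 3, a difference of −0.65. For *Actn2* against the non-muscle *Actn1* it was 2.34, 2.53 and 3.04 and 2.003, 1.69 and 2.25 in the same order, a difference of −0.66. The muscle chaperone *Unc45b* and the general *Unc45a* gave 2.79, 3.04 and 3.74 and 2.31, 2.06 and 2.59, a difference of −0.87. For *Fhl2* and *Fhl3* the values were 3.89, 4.0 and 4.55 and 3.21, 3.00 and 3.82, a difference of −0.80. In each of these pairs wildtype replicate 3 had the highest ratio and mutant replicate 2 the lowest.

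**Figure D4:**
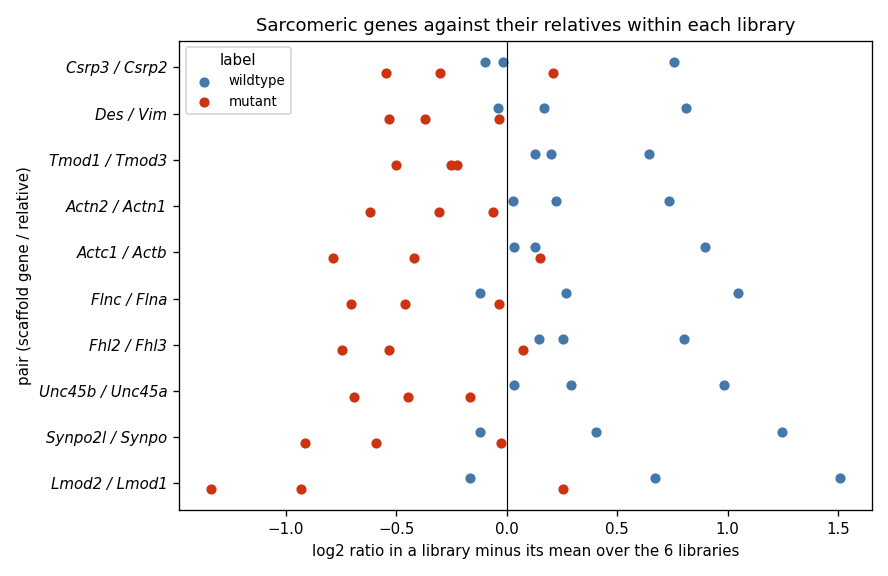
Each row is a pair of a scaffold gene and a relative of the same family, chosen after the values were seen. Points are the log2 ratio of their CPM in 1 library minus the mean of the 6 libraries. Blue marks wildtype and red mutant labels. The mean of the mutant points lies left of the mean of the wildtype points in all 10 rows, and the labels separate fully in *Tmod1* / *Tmod3*, *Actn2* / *Actn1*, *Fhl2* / *Fhl3* and *Unc45b* / *Unc45a*.

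Shares within families of members, also compared after the values were seen, were computed for the isoforms nearest to or above 0. *Acta1* made up 2.82%, 2.85% and 2.33% of the RPKM of both sarcomeric actins in wildtype replicates 1, 2 and 3 and 3.94%, 3.86% and 2.61% in mutant replicates 1, 2 and 3. *Myom2* made up 7.15%, 8.02% and 3.35% of both myomesins in wildtype replicates 1, 2 and 3 and 9.20%, 11.9% and 7.32% in mutant replicates 1, 2 and 3. *Pdlim3* was 71.1%, 67.1% and 54.5% of the *Pdlim3* and *Pdlim5* total in wildtype replicates 1, 2 and 3 and 76.7%, 80.4% and 66.2% in mutant replicates 1, 2 and 3. In all 3 the ranges of the labels overlapped, and the lowest share was in wildtype replicate 3.

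Of the marker lists for cell types that an OFT sample can hold, some differed between the labels along with the scaffold genes. Others had medians nearer 0. All 20 cardiomyocyte genes outside the sarcomere, such as *Ryr2*, *Pln* and *Atp2a2*, were lower in the mutant libraries, with a median log2 fold change of −0.48 and 3 called by DESeq2, and their summed level was 3635 to 5453 CPM in the wildtype and 2468 to 3929 CPM in the mutant libraries. All 10 cushion mesenchyme genes were higher (median 0.58, 1 called by DESeq2), with a summed level of 4842 to 9377 CPM in the wildtype and 8784 to 11331 CPM in the mutant libraries, lowest in wildtype replicate 3. Erythroid genes were lower in 9 of 9 (median −0.56, 5304 to 11797 CPM in the wildtype and 6092 to 6231 CPM in the mutant libraries). Of 17 skeletal muscle genes 14 were tested, 12 of them lower (median −0.64, 247 to 391 CPM in the wildtype and 176 to 233 CPM in the mutant libraries). The defining genes *Pax7* and *Myf5* were not among the genes tested. *Myod1* was at most 0.361 CPM and *Myog* at most 1.95 CPM in any library, both in wildtype replicate 2. In that replicate *Myh3* was at 6.53 CPM, against 0.855 and 1.42 CPM in wildtype replicates 1 and 3. There *Myh8* was at 3.28 CPM against 0.360 and 0.493 CPM, and *Mylpf* at 11.5 CPM against 3.69 and 8.97 CPM. Others of the list, such as *Ckm* and *Klhl41*, were highest in wildtype replicate 3. The 7 liver genes were lower in 7 of 7 (median −4.22, 1.82 to 99.3 CPM in the wildtype and 1.59 to 5.84 CPM in the mutant libraries), with the high values in wildtype replicates 2 and 3. Smooth muscle (9 genes, median 0.08), endothelial (8, −0.07), epicardial (7, −0.20), neuronal (7, 0.12), macrophage (8, −0.09) and neural crest and glia genes (6 of 7 tested, 0.32) had medians nearer 0. Single genes of these lists were called by DESeq2, named here after their values were seen. Of all 28157 genes tested, DESeq2 called 331 as lower and 411 as higher. They were lower for *Pln*, *Cox6a2* and *Fabp3* (cardiomyocyte), *Klhl41* (−1.14) and *Ckm* (−0.76, skeletal muscle), *Hbb-y* and *Slc4a1* (erythroid) and *Apoa2* (liver), and higher for *Col1a1* (cushion mesenchyme), *Myh11* (1.04, smooth muscle) and *Tubb3* (1.29, neuronal). No gene of the endothelial, epicardial, macrophage or neural crest and glia lists was called by DESeq2. The median of the endothelial and of the macrophage genes turned positive with scaling by library size alone. The part of these cell types in the levels of the scaffold genes was not tested. In a fit with the mean of the cardiomyocyte genes as a covariate, the median log2 fold change of the 35 members was −0.10. In that fit 28 members were lower. All 20 genes of the covariate were themselves lower under the mutant label, so this fit cannot separate cell content from the label.

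**Figure D5:**
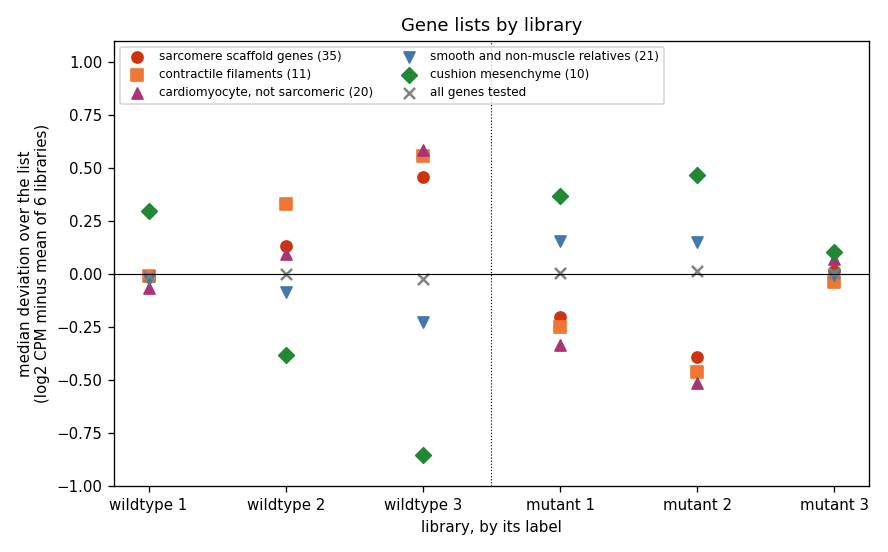
Median deviation from the mean of the 6 libraries (log2 CPM) of each gene list in each library; numbers in the legend are the genes per list, and the dotted line separates the labels. Scaffold, contractile and other cardiomyocyte genes are highest in wildtype 3 and lowest in mutant 2, and cushion mesenchyme genes show the opposite order.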

How the data were processed

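Bulk RNA-Seq of the E13.5 OFT was analysed in 6 libraries, 3 labelled mutant and 3 labelled wildtype. The authors removed ribosomal RNA, prepared stranded libraries of total RNA, mapped reads to mm10 with TopHat (version 2.1.0) and Bowtie2 per the submitters' processing notes, and counted reads on exons with GenomicAlignments. What was deposited are raw counts, 1 whole number for each gene and library. The annotation release and the strand setting of the counting are not given in the sources used here. The study's filter was kept (more than 5 reads summed over the libraries), which removed 620 genes and 0 members.

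Counts were scaled by TMM and tested with edgeR 4.0.16 (quasi-likelihood test, R 4.3.3, Benjamini-Hochberg adjustment over 28157 genes, a call being an adjusted p of 0.05 or less). DESeq2 1.42.0, limma 3.58.1 (voom), other scalings and filters, the replicate number as a block, a GC and length correction, a covariate made of the mean of the cardiomyocyte genes, a stricter adjusted p (0.01) and each library left out were alternatives. Exact permutation tests used log2 of CPM plus 0.5. The scripts were tested on simulated data, in which 200 of 27330 genes were given a difference between the groups. Of these 200 genes edgeR recovered 184, DESeq2 188 and limma-voom 181. False calls numbered 21 with edgeR, 41 with DESeq2 and 21 with limma-voom. Gene positions and exon lengths came from GENCODE M21 (mm10), where 28723 of 28777 identifiers were found, and promoters from RefSeq. The floor of 3 counts covers counting error only.

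The members, the gene lists, the pairs and the shares were chosen with earlier results of these data known, so counts over them are descriptions. CPM in every library is given for members called by either tool, those with the 3 highest and 3 lowest log2 fold changes, the 5 highest and 5 lowest by RPKM, and *Ttn*, *Actc1*, *Acta1* and *Des*; the other members are given by group means. Of each pathway list, the genes with the highest and lowest log2 fold change and the highest level are named, and *Cap2* and *Myl7* were added after their values were seen.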

Additional observations from a re-analysis of the deposited data

How the results depend on the processing

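Of the 35 members, 0 were called by edgeR, and 0 also with DESeq2's size factors, with limma-voom, with library size as the only scaling, no filter on low counts, filterByExpr, the correction for GC content and length, the cardiomyocyte covariate, or an adjusted p of at most 0.01. The number was 5 with DESeq2's Wald test (of 742 genes called, against 6 by edgeR), and between 0 and 14 with edgeR when 1 library was left out, 14 without wildtype replicate 1 (2593 genes called). With DESeq2 it was between 0 and 20 when 1 library was left out. With the replicate number of the titles as a block, 20 members were called, 18 lower and 2 higher, of 1577 genes, and with that block plus a GC and length correction 28, 27 lower and 1 higher, of 2257 genes. The numbers were not taken to pair the libraries: deviations of same-numbered libraries correlated at 0.10, 0.16 and 0.42 for replicates 1, 2 and 3, and wildtype replicate 1 correlated best with mutant replicate 2 (0.28). With the block on the numbers of the descriptions 0 members were called, of 83 genes. The cause of these differences was not tested.

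The number of members that were lower was between 28 and 31 under every alternative run. Their median log2 fold change was −0.10 with the cardiomyocyte covariate and otherwise between −0.26 (without wildtype replicate 3) and −0.54 (without mutant replicate 3). Scaling by library size alone moved the median of all genes to 0.11, and the median of the members, −0.31, was then −0.42 relative to it. The sign turned under that scaling for *Ttn* (0.018) and *Ankrd1* (0.0484), with the covariate for *Mypn* (0.11), *Pdlim5* (0.0498) and *Ankrd1* (0.0181), and when 1 library was left out for *Ttn* (−0.209 to 0.0459) and *Ankrd1* (−0.142 to 0.0139). *Xirp2* and *Myot* rest on few counts, which limits their precision.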
